A study of Nannochloropsis gaditana with 4 samples.

Results

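The 8 reference genes of a quantitative PCR panel were examined in the marine microalga *Nannochloropsis gaditana*. They comprise the cytoskeletal genes for actin (ACT), alpha tubulin 1 (AT1) and beta tubulin (BT), translation elongation factor 1 (TEF1), a ubiquitin family protein (UFP), glyceraldehyde-3-phosphate dehydrogenase (GAPDH), cyclophilin (CYP) and a phosphatidic acid phosphatase (PAP1). The first 7 of these were chosen because the letter r stands before their gene identifier in the deposited tables, a mark that PAP1 lacks. PAP1 was added because it forms, with CYP, the factor by which the authors normalized the panel. The panel held 44 genes in all, so 36 were not members.

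Strain CCAP 849/5 was kept as a batch culture over 13 days, and total RNA was measured by SYBR Green quantitative PCR, as bulk RNA in which the number of cells in a state and the RNA per cell cannot be told apart. The control culture received continuous light (CL), and the flashing-light cultures received flashes at 5 Hz (FL5), 50 Hz (FL50) or 500 Hz (FL500), lit for a fraction of 0.05 of each cycle. All conditions had a mean of 300 µmol s-1 m-2, which a flash raised to 6000 µmol s-1 m-2. Each condition was 1 sample with 3 numbered repeats, from RNA described as pooled, and the labels do not say what a repeat stands for. The value columns carry sample numbers only. Sample 1 is the divisor of each column of the authors' fold table, which is headed as test over control, and CL is the only sample labelled as control. Samples 2, 3 and 4 are therefore those under flashes, and which of them had which frequency is unknown.

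Reference genes are transcripts assumed to stay level, so that dividing by them removes differences in the amount of RNA between reactions. Actin builds filaments, and alpha and beta tubulin pair to form the dimer from which microtubules are built. Elongation factor 1 brings aminoacyl-tRNA to the ribosome, GAPDH is a step of glycolysis, cyclophilins are peptidyl-prolyl isomerases that assist protein folding, and ubiquitin marks proteins for degradation. Phosphatidic acid phosphatase makes diacylglycerol on the way to storage and membrane lipids. No sequence of these genes was used here.

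Values are linear ratios. In the table called non-normalized, each gene was deposited relative to the highest of its 12 values, which is 1 for each of the 44 genes, so levels cannot be compared between genes. In the normalized table the same ratio was divided by a factor for each sample and repeat. Changes are differences between means of log2 ratios. Their error is the propagated SD, which adds the squares of the SDs of both samples and takes the root, and it covers the spread of the repeats only. A change was counted as passed when it was at least 2-fold and beyond 2 propagated SDs. With 1 sample per condition there is no test between conditions. PCR without a count gives no depth, so the distance of a value to the detection limit is unknown.

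Before normalization, BT set itself apart from the other members. Its ratio was 0.394, 0.468 and 1.00 in the 3 repeats of CL, 0.118, 0.190 and 0.199 in sample 2, 0.346, 0.0955 and 0.447 in sample 3, and 0.733, 0.745 and 0.817 in sample 4. Sample 2 lay below each CL repeat, sample 3 had 1 of 3 repeats within the CL range and the others below it, and sample 4 lay within that range. The means of the 4 samples spanned 2.21 on the log2 scale, the widest span among the 44 genes, against a median of 0.49 over the 36 other genes. The widest span of those 36 was also 2.21 after rounding. The repeats of BT were also the most scattered of the 44 genes, with a pooled SD of 0.73 log2 against a median of 0.30.

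**Figure D1:**
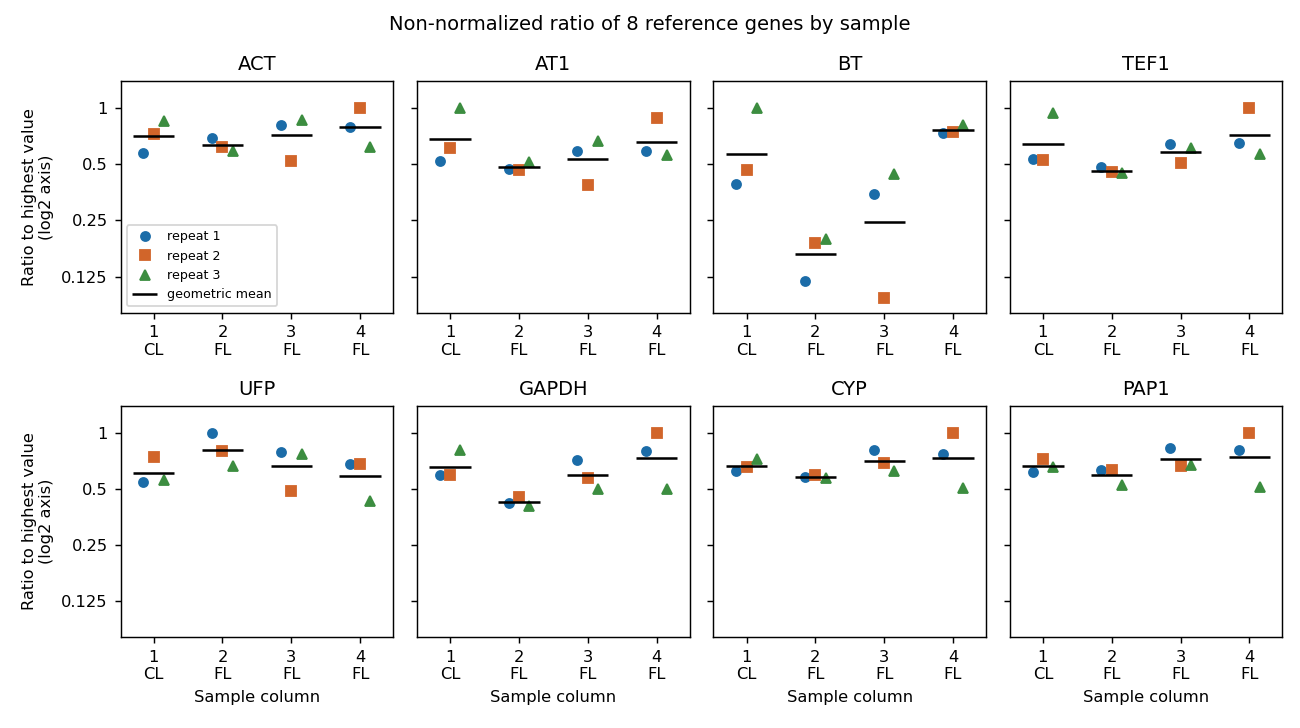
Non-normalized ratios (vertical, relative to the highest of a gene's 12 values, log2 axis) of the 8 members by sample column (CL, continuous light, and FL, flashing light). Each point is 1 repeat and each bar the geometric mean of 3; BT spans a much wider range than the other members, and 5 members have their highest value in repeat 2 of sample 4.

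The other 7 members spanned 0.31 to 0.78 log2 before normalization. ACT had 0.31, CYP and PAP1 0.33 each, UFP 0.47, AT1 0.50, TEF1 0.64 and GAPDH 0.78. Most of the members shared an excursion in sample 4. CYP stood at 0.771, 1.00 and 0.507 in the repeats of that sample, PAP1 at 0.810, 1.00 and 0.513, and GAPDH at 0.796, 1.00 and 0.498. In repeat 2 of sample 4, 5 members (ACT, CYP, GAPDH, PAP1 and TEF1) and 20 of the 36 other genes had their highest value of all 12. BT did not take part, with 0.733, 0.745 and 0.817 in the same repeats.

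CYP and PAP1 followed each other across the 12 values more closely than any other pair of members. CYP read 0.621, 0.658 and 0.728 in CL, 0.578, 0.595 and 0.569 in sample 2, and 0.811, 0.687 and 0.625 in sample 3. PAP1 read 0.620, 0.724 and 0.656 in CL, 0.629, 0.629 and 0.527 in sample 2, and 0.833, 0.665 and 0.675 in sample 3. For both genes sample 2 held the lowest mean. Its repeats lay below those of CL for CYP and overlapped them for PAP1. The log2 ratio of CYP to PAP1 ran from −0.14 to 0.15, with an SD of 0.09. The factor formed from the 2 genes was 0.921 to 1.03 in CL, 0.814 to 0.908 in sample 2, 0.965 to 1.22 in sample 3 and 0.757 to 1.49 in sample 4. The highest and the lowest factor of the panel thus fell in repeats of the same sample.

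After normalization, CYP and PAP1 mirror each other by construction, since each is divided by a mean of both. CYP was at −0.02 log2 against CL in each flashing-light sample and PAP1 at 0.02. These values describe the 2 genes against each other and say nothing of their level against the rest of the panel. Against the median of the 36 other genes, CYP was at −0.34 ± 0.10 and PAP1 at −0.31 ± 0.19 in sample 2. CYP and PAP1 were at 0.07 ± 0.16 and 0.11 ± 0.19 in sample 3. In sample 4 they were at −0.05 ± 0.06 and −0.02 ± 0.18, and the values of both samples lay inside their errors. In PAP1's own family, neither PAP2 nor PAP3 passed against CL in any sample, and PAP1 is held near 0 by construction. PAP2 was at 0.78 ± 0.25 in sample 2, 0.10 ± 0.19 in sample 3 and −0.31 ± 0.23 in sample 4. PAP3 was at −0.20 ± 0.09, −0.14 ± 0.40 and −0.18 ± 0.13. Of the 11 genes of glycerolipid assembly, PAP1 included, 0 passed in samples 2, 3 or 4, beside 11.4%, 2.27% and 0% of all genes. Their medians were 0.02, −0.00024 and −0.15 beside 0.11, −0.06 and −0.04 over the 44 genes. The median in sample 2 is the value of PAP1 itself, which is set by construction.

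**Figure D2:**
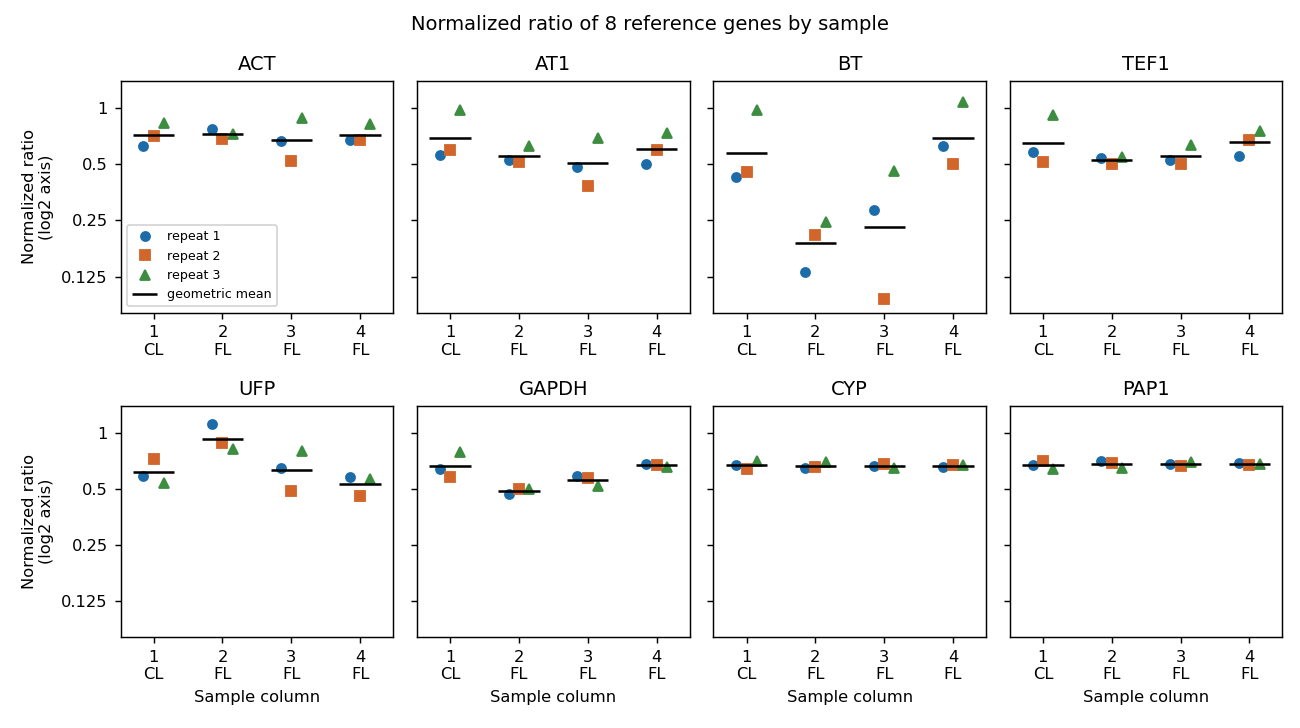
Normalized ratios (vertical, log2 axis) of the 8 members by sample column (CL, continuous light, and FL, flashing light). Points are the 3 repeats and bars their geometric means; CYP and PAP1 are level by construction, UFP is highest in sample 2, GAPDH is lowest there, and BT is low in samples 2 and 3.

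Against CL, none of the 8 members passed in sample 2, where 11.4% of the 44 genes did. None passed in sample 3, where 2.27% of all genes did, and none in sample 4, where the share over all genes was 0%. In sample 2 the repeats of 3 members did not overlap those of CL, with UFP higher and BT and GAPDH lower, beside 54.5% of all genes. In sample 3 the repeats of 0 members lay apart from CL, beside 6.82% of all genes, and in sample 4 again 0 members, beside 15.9%. The median change of the members was −0.16 in sample 2, −0.16 in sample 3 and 0.01 in sample 4, beside 0.11, −0.06 and −0.04 over the 44 genes. These counts and medians include CYP and PAP1, which are held near 0 by construction. No median without the pair was computed, so these values do not show how level the other members were.

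Among the 3 cytoskeletal genes, ACT had the smallest span. Its normalized ratio was 0.624, 0.706 and 0.832 in CL, 0.775, 0.686 and 0.728 in sample 2, 0.670, 0.522 and 0.892 in sample 3, and 0.672, 0.673 and 0.822 in sample 4. The 4 samples overlapped, and their means spanned 0.10 log2 against a pooled repeat SD of 0.24. Changes against CL were 0.02 ± 0.23, −0.08 ± 0.44 and 0.01 ± 0.27 in samples 2, 3 and 4. The median span of the 36 other genes was 0.63.

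AT1 read 0.565, 0.600 and 0.975 in CL and 0.525, 0.514 and 0.630 in sample 2. It read 0.486, 0.385 and 0.690 in sample 3 and 0.502, 0.595 and 0.739 in sample 4. The flashing-light samples each overlapped CL, whose repeat 3 stood well above its other two. AT1 was at −0.32 ± 0.46, −0.45 ± 0.61 and −0.19 ± 0.51 against CL, lower within 3 of 3 repeat numbers in each sample, and none of these changes exceeded 1 propagated SD.

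BT, the partner of alpha tubulin in the dimer, had the widest span of the normalized members, at 1.88 log2, place 3 of the 44 genes. It read 0.428, 0.457 and 0.975 in CL, 0.131, 0.210 and 0.245 in sample 2, 0.283, 0.0951 and 0.463 in sample 3, and 0.625, 0.502 and 1.08 in sample 4. Sample 2 lay wholly below CL, while samples 3 and 4 overlapped it. The mean ratio was 0.620 ± 0.308 in CL (SD, n = 3), 0.195 ± 0.0581 in sample 2, 0.280 ± 0.184 in sample 3 and 0.735 ± 0.304 in sample 4. In sample 2 the change against CL was −1.61 ± 0.81, or 0.329-fold, which missed the bound of 1.62 set by 2 propagated SDs. It was −1.31 ± 1.34 in sample 3 and 0.28 ± 0.87 in sample 4.

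The call on BT in sample 2 turned on the error, the reference and the repeats used. BT passed in 11 of 20 alternative calculations, among them CYP, ACT, TEF1, AT1 or UFP as the single reference. It did not pass with PAP1 or GAPDH as the reference. The 20 include settings in which BT could not pass. As its own reference it is 0, and bounds of 1.5-fold and 3-fold keep the limit of 2 propagated SDs that it missed. Among the 11, the SD of differences within a repeat number and the authors' table of folds are the same calculation for BT. BT also passed without repeat 3, at −1.41 ± 0.48, the repeat in which CL was highest. It did not pass without repeat 1 (−1.56 ± 0.79) or without repeat 2 (−1.85 ± 1.05). Nor did it pass with the median of the repeats (−1.12 ± 0.81) or with a base of 2, described below. The sign was negative in 17 of 18 alternative values, the exception being BT as its own reference, at 0.

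**Figure D3:**
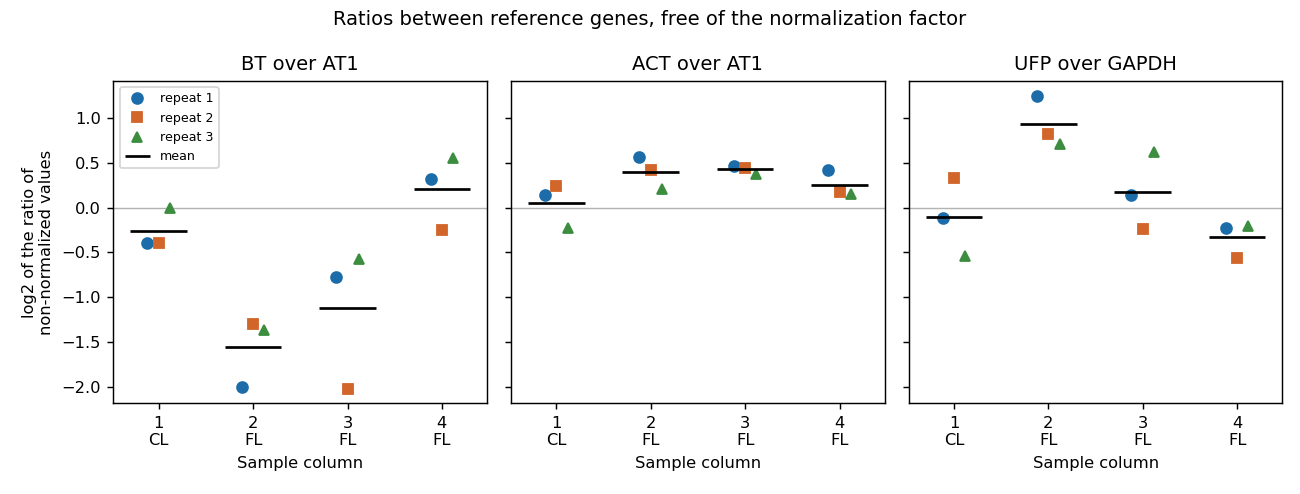
Log2 ratio of non-normalized values between 2 members of the same sample and repeat (vertical), for BT over AT1, ACT over AT1 and UFP over GAPDH, by sample column (CL, continuous light, and FL, flashing light). Points are repeats and bars are means of 3; BT over AT1 is below CL in each repeat of samples 2 and 3, and UFP over GAPDH is above CL in each repeat of sample 2.

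A ratio between 2 members of the same sample and repeat does not depend on the factor. Each gene is scaled to its own highest value, so only changes in such a ratio carry information. BT over AT1 was 0.758, 0.761 and 1.00 in CL, 0.250, 0.408 and 0.389 in sample 2, 0.583, 0.247 and 0.670 in sample 3, and 1.25, 0.843 and 1.46 in sample 4. All repeats of samples 2 and 3 were below all repeats of CL, and sample 4 overlapped CL. The log2 ratio of AT1 to BT was higher than in CL by 1.29 ± 0.45 in sample 2, which passed, and by 0.86 ± 0.81 in sample 3, which did not. In sample 4 it differed from CL by −0.47 ± 0.47. ACT over AT1 had mean log2 ratios of 0.05 ± 0.25 in CL, 0.39 ± 0.18 in sample 2, 0.42 ± 0.05 in sample 3 and 0.25 ± 0.15 in sample 4. Its repeats in sample 3 all lay above those of CL, at a change of 0.37 ± 0.25 that did not pass, and samples 2 and 4 overlapped CL.

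Among the other housekeeping genes, TEF1 kept close to AT1. Its normalized ratio was 0.580, 0.515 and 0.922 in CL, 0.539, 0.503 and 0.549 in sample 2, 0.527, 0.504 and 0.636 in sample 3, and 0.556, 0.673 and 0.751 in sample 4. Repeat 3 of CL again stood above the other two and the flashing-light samples overlapped CL. The changes were −0.30 ± 0.45, −0.23 ± 0.48 and 0.01 ± 0.50. The SD of the log2 ratio of TEF1 to AT1 over the 12 values was 0.17, the second smallest of the 28 pairs of members after CYP and PAP1.

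UFP and GAPDH lay on opposite sides of CL in sample 2. UFP read 0.590, 0.725 and 0.541 in CL, 1.12, 0.878 and 0.821 in sample 2, 0.648, 0.487 and 0.798 in sample 3, and 0.581, 0.456 and 0.568 in sample 4. Only sample 2 lay apart from CL, above it. The change there was 0.60 ± 0.32, or 1.51-fold, under both bounds of the rule, and 0.04 ± 0.42 and −0.21 ± 0.29 followed in samples 3 and 4. Its sign in sample 2 was positive in 17 of 18 alternative values and 0 with UFP as its own reference, but its size moved with the reference. It was 0.27 ± 0.41, inside its error, with the median of the 36 other genes, 0.92 ± 0.69 with AT1 and 1.04 ± 0.52 with GAPDH.

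GAPDH read 0.642, 0.577 and 0.787 in CL, 0.471, 0.498 and 0.500 in sample 2, 0.588, 0.573 and 0.520 in sample 3, and 0.678, 0.673 and 0.657 in sample 4. Sample 2 lay below CL in all repeats, sample 3 overlapped CL at the edge, and sample 4 lay inside its range. The changes were −0.44 ± 0.23, −0.25 ± 0.25 and 0.01 ± 0.23. The value in sample 2 depended on the reference. It was −0.14 ± 0.24 with TEF1 and −0.12 ± 0.29 with AT1, both inside their error, −0.76 ± 0.13 with the median of the 36 other genes, and of the other sign, 1.17 ± 0.62, with BT. The repeats of GAPDH were tight under flashing light, with SDs of 0.05, 0.09 and 0.02 log2 in samples 2, 3 and 4, against 0.23 in CL. GAPDH is the member whose repeat spread shrank most with normalization apart from the pair in the factor, from a pooled SD of 0.32 to 0.13.

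UFP over GAPDH, free of the factor, was 0.919, 1.26 and 0.688 in CL and 2.37, 1.76 and 1.64 in sample 2. It was 1.10, 0.850 and 1.54 in sample 3 and 0.857, 0.677 and 0.865 in sample 4. Sample 2 lay above every repeat of the other 3 samples. Its log2 change against CL was 1.04 ± 0.52 and passed narrowly, while sample 3 was at 0.29 ± 0.61 and sample 4 at −0.22 ± 0.48.

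Of the 28 ratios between members, 6 passed in sample 2 against CL, 5 of them among the 7 that hold BT and 1 among the other 21, UFP over GAPDH. In samples 3 and 4 none of the 28 passed against CL. The pairs share genes, so these counts are not independent of each other, and the look at all pairs was chosen after the values were seen. The share over pairs of all genes in the panel was not computed, so the counts have no background beside them.

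Set against each other, the flashing-light samples gave 1 passed member in 1 of 3 comparisons. In sample 4 against sample 2, BT was higher by 1.88 ± 0.74. That was 1 of 8 members, or 1 of 6 outside the factor, a share not above the 18.2% of the 44 genes that passed. The repeats of 4 members lay apart in that comparison, beside 65.9% of all genes, with BT, GAPDH and TEF1 higher and UFP lower in sample 4. GAPDH was at 0.45 ± 0.05, TEF1 at 0.31 ± 0.23 and UFP at −0.81 ± 0.30, each under 2-fold. The value of GAPDH and its error moved with the reference, to 0.15 ± 0.26 with TEF1, 0.33 ± 0.34 with AT1 and 0.78 ± 0.52 with no reference. UFP was at −1.11 ± 0.40 with TEF1 and −0.47 ± 0.48 with no reference. BT passed in 17 of 19 alternative calculations there, except with GAPDH, at 1.43 ± 0.72, or with itself as the reference.

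In sample 3 against sample 2 none of the members passed, beside 9.09% of all genes, and BT was at 0.29 ± 1.26 with overlapping repeats. The repeats of UFP (−0.56 ± 0.43) and GAPDH (0.19 ± 0.11) lay apart, beside 45.5%. In sample 4 against sample 3 none passed, beside 0%, and the repeats of BT (1.59 ± 1.30) and GAPDH (0.26 ± 0.10) lay apart, beside 38.6%. Over the ratios between members, 8 of 28 passed in sample 4 against sample 2, of which 6 hold BT, and 0 of 28 in the remaining comparisons of flashing-light samples. The 2 without BT were UFP over GAPDH, at −1.26 ± 0.35, and TEF1 over UFP, at 1.11 ± 0.40. Here too the share over pairs of all genes in the panel was not computed.

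The members were then ranked by M, the usual stability measure for reference genes. It is the mean, over the other members, of the SD of the log2 ratio between the 2 genes across the 12 values, and a low M marks a gene that keeps its ratio to the rest. With all 8 members M was 0.36 for ACT, 0.37 for CYP and TEF1, 0.38 for PAP1, 0.39 for AT1, 0.40 for GAPDH, 0.58 for UFP and 1.00 for BT. The first 6 lie close together. Leaving out a repeat moved M of several of them, that of PAP1 between 0.31 and 0.41, so their order is not settled. BT was last in each of 7 calculations that hold it, and UFP was next to last in those and last in the 1 without BT. Leaving out the gene of highest M in turn removed BT, UFP, AT1, TEF1, GAPDH and ACT, in that order, and left CYP and PAP1. PAP1 is a member only because the authors' factor holds it with CYP. Neither this outcome nor the closeness of the pair is therefore independent support for that factor.

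**Figure D4:**
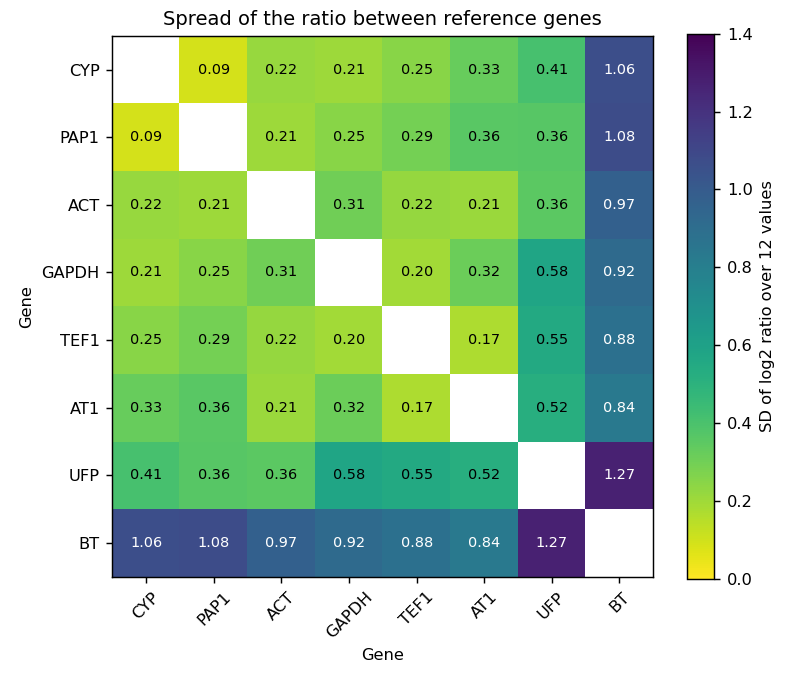
SD of the log2 ratio between each 2 members over the 12 values of the non-normalized table (colour and printed value, log2 units). The row of BT holds the highest values, from 0.84 with AT1 to 1.27 with UFP, and CYP with PAP1 the lowest at 0.09.

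The 21 pairs without BT had SDs of 0.09 to 0.58, and the 7 pairs with BT 0.84 to 1.27. BT was closest to AT1 among the members. The factor was then rebuilt with more members. Adding ACT to CYP and PAP1 moved the log2 factor by an SD of 0.07 over the 12 values, adding GAPDH, TEF1, AT1 and UFP in turn moved it by 0.06, 0.04, 0.04 and 0.06, and adding BT as the last moved it by 0.12.

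Ranked by the same measure over all 44 genes, the members did not lead the panel. The lowest M belonged to NAR1, the nitrite transporter, at 0.33, followed by DGAT4 and GPD3 at 0.34. ACT, CYP and PAP1 took places 4, 5 and 6 at 0.35 each. TEF1 was at place 19, AT1 24, GAPDH 25, UFP 29 and BT 44, with M of 0.40, 0.42, 0.42, 0.44 and 1.09 around a median of 0.41.

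For each member the 2 nearest genes by the SD of the log2 ratio over the 12 values were named, out of 7 other members and 36 other genes. TEF1 and ACT were both nearest to DGAT5, a diacylglycerol acyltransferase, at 0.13 each, followed by GPD2 at 0.15 and PAP3 at 0.14. UFP was nearest to ALAD, an enzyme of tetrapyrrole synthesis, at 0.12 and to the violaxanthin de-epoxidase VDE1 at 0.15, whereas its nearest member, ACT, was at 0.36, and that of ACT, PAP1, at 0.21. GAPDH was nearest to DGAT3 at 0.15 and GPD2 at 0.17.

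CYP and PAP1 were nearest to each other and then to NAR1, at 0.13 and 0.12. AT1 was nearest to TEF1 and then to the desaturase gene D6S, both at 0.17. BT had no near gene, the closest being BC at 0.75 and NR, nitrate reductase, at 0.79. The 12 values share 4 samples, and no statement on shared control is made from these distances.

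**Figure D5:**
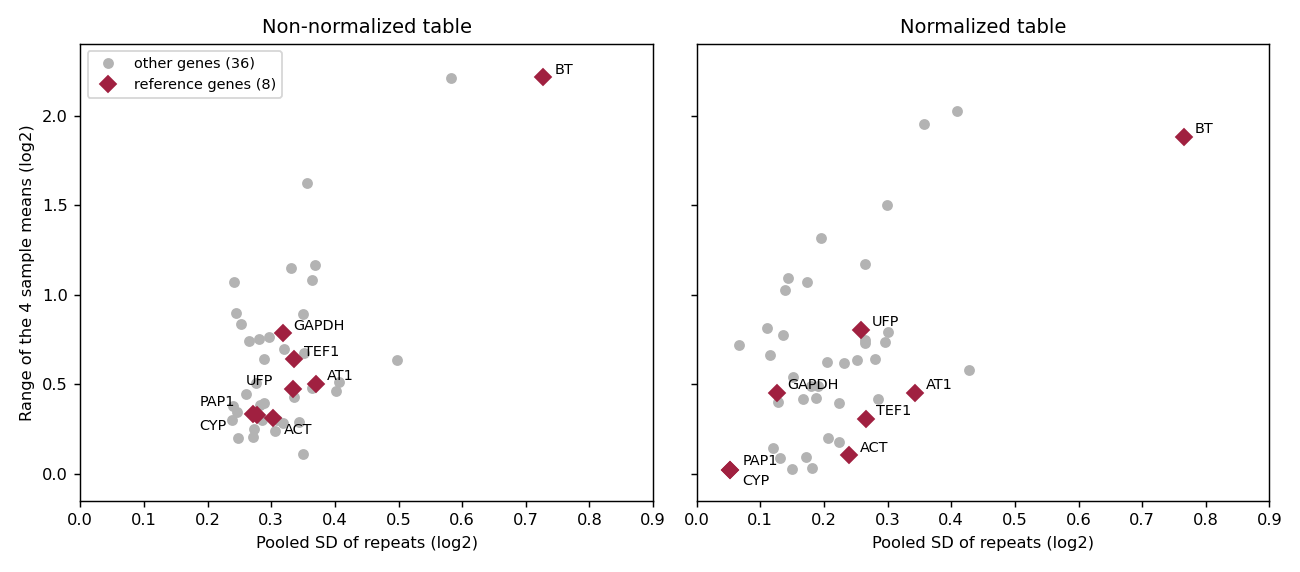
Range of the 4 sample means (vertical, log2) against the pooled SD of the repeats (horizontal, log2) for 44 genes, before (left) and after (right) normalization. Diamonds are the 8 members and circles the 36 other genes; BT lies at the far right in both, and CYP and PAP1 fall to the lower left corner after normalization because they form the factor.

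Normalization narrowed the repeats of most members, and those of the panel too. The median pooled repeat SD of the 36 other genes went from 0.30 to 0.19 log2. The pooled repeat SD went from 0.34 to 0.27 log2 for TEF1, from 0.33 to 0.26 for UFP, from 0.30 to 0.24 for ACT and from 0.37 to 0.34 for AT1. For BT it went from 0.73 to 0.77. In sample 4 the 3 repeats of BT had an SD of 0.08 before normalization and 0.57 after it, as the factor there ran from 0.757 to 1.49. The spans of the sample means shrank for TEF1 (0.64 to 0.31), ACT, AT1, BT and GAPDH, and grew for UFP (0.47 to 0.81). The median span of the 36 other genes grew from 0.49 to 0.63.

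The repeat numbers were not neutral for the cytoskeletal genes and TEF1. In the normalized table, repeat 3 was the highest of the 3 repeats in 4 of 4 samples for BT, AT1 and TEF1 and in 3 of 4 for ACT, and it was so in 4 of 4 for 5 of the 36 other genes. In CL, repeat 3 stood above the mean of the other repeats by 1.14 log2 for BT, 0.76 for TEF1, 0.74 for AT1, 0.37 for GAPDH and 0.33 for ACT, and below it by a log2 difference of −0.27 for UFP, beside a median of 0.08 over the 36 other genes. Counted from the highest of the 44 genes, these offsets in CL took place 2 for BT, 7 for TEF1, 8 for AT1, 15 for GAPDH and 18 for ACT. Genes outside the members thus had offsets of this size too. What sets repeat 3 apart was not tested.

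The deposited ratios of each gene are powers of a single base with exponents in steps of 0.01, as cycle numbers with 2 decimals would give. The base was fitted per gene to bring the exponents onto whole steps, and the largest remainder over the 44 genes was 0.00094 of a step. It is a number in the authors' calculation, and whether it equals the growth of product per cycle was not tested. The base was 1.99 for TEF1, 2.00 for GAPDH, 2.02 for PAP1, 2.03 for UFP, 2.05 for ACT, 2.06 for CYP, 2.07 for AT1 and 2.17 for BT, the last being the highest of the 44 genes. A base of 2 is perfect doubling, and 35 of the 44 bases, 6 of them of members, exceeded it. The 12 values of BT spanned 3.03 cycles and those of the other members 0.90 to 1.31 cycles. With a base of 2 for every gene, the change of BT in sample 2 against CL became −1.42 ± 0.72, and its M became 0.89, still the highest of the 8.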

How the data were processed

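Linear ratios from SYBR Green quantitative PCR of 44 genes in 4 samples with 3 repeats were taken from the deposited tables. Per the file headers, 1 table is non-normalized, 1 is a signal normalized to housekeeping genes by the authors, and 1 gives fold changes as test over control. Instrument, software and primer efficiencies: not given in the sources used here. Recomputation gave the divisor as the geometric mean of CYP and PAP1, scaled to a geometric mean of 1, within 0.1% for 43 genes. The exception, MCT, was recomputed as its ratio over the factor. For PAP1, repeat 1 of the authors' deposited table of folds carries the values of CYP (0.958, 0.986 and 0.975). Identifiers of the non-normalized table that differ (4 rows, no member) were joined by place, which the factor reproduced.

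Means, SDs, M and the rule of size were computed on the log2 scale with no pseudocount (Python 3.11.15, numpy 2.4.6, pandas 2.3.3) and tested on simulated data. Named genes were the 8 members and, for each, the 2 genes with the smallest SD of the log2 ratio. The members and lists were chosen with earlier results of these data known. Alternatives covered the reference, the repeats, the fold, the error, the base and the fold table.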

Additional observations from a re-analysis of the deposited data

Results flagged for a closer look

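BT was picked out because, in the normalized table, repeat number by repeat number, it went down from continuous light in 3 of 3 repeats of one flashing-light sample and up in 3 of 3 of another. This condition was checked for the 6 members outside the factor in the 3 pairs of flashing-light samples, 18 checks in all, and BT met it in 2. The log2 change in sample 2 minus that in sample 4 was −1.88, and that in sample 3 minus that in sample 4 was −1.59. The control repeats are shared, and neither difference was tested, since each condition was 1 sample. In the non-normalized table repeat 3 went from 1.00 in continuous light to 0.817 in sample 4, so that only 2 of 3 repeats were higher there, and the factor of that repeat, 0.757, was the lowest of the 12. In sample 4 the normalized change itself was 0.28 ± 0.87, within its error, and its repeats overlapped those of continuous light. The flag pairs repeats by number, though the condition for such pairing, given below, was not met.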

How the results depend on the processing

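Over the alternatives, 99 of 117 counts of passed members stayed within 1.5 times and 18 moved, and no called value changed sign. Those that stayed include every count of samples 3 and 4 against CL and of sample 3 against sample 2. All of these were 0, so the total says little about the comparisons in which a member passed. Of the log2 changes of single members 172 of 840 moved, and of the spans of the sample means 18 of 40. Sample 2 against CL (main 0) gave 1 (BT, or UFP with GAPDH as reference) with CYP, ACT, TEF1, AT1 or GAPDH alone, with the 7 members other than BT, the median of the 36 other genes, no reference or the authors' deposited table of folds, 2 with UFP, 5 with BT, and 0 to 1 without 1 repeat (1 without repeat 3). Sample 4 against 2 (main 1) gave 2 with TEF1 or at 1.5-fold, 3 with UFP and 6 with BT. With GAPDH as the reference the count there stayed at 1, but the member that passed was UFP and not BT. A replicate block, the SD of differences within a repeat number, gave 1 (BT) in sample 2 against CL, where the main count is 0. It also gave 1 (BT) in sample 4 against 3, again beside a main count of 0, and moved no other count. The authors' table of folds was taken with this blocked error, so for BT in sample 2 it repeats the blocked value, −1.61 ± 0.44. The condition for pairing repeats by number was not met, with correlations of −0.28 to 0.61 over the 44 genes, 10 of 18 above 0.1. The correlations differed by repeat number, at −0.05 to 0.58 for repeat 1, −0.28 to 0.42 for repeat 2 and 0.08 to 0.61 for repeat 3. M without BT was 0.25 for CYP, 0.26 for PAP1, 0.28 for TEF1, 0.46 for UFP, 0.25 for ACT, 0.32 for AT1 and 0.31 for GAPDH. From the 4 sample means M was 0.27, 0.28, 0.27, 0.53, 0.27, 0.30 and 0.31 in that order, and 0.91 for BT. With base 2 it was 0.55 for UFP, 0.34 for ACT and 0.89 for BT, and over all genes 0.44 for UFP, 0.35 for ACT, 1.09 for BT and 0.42 for GAPDH. Without 1 repeat it ran from 0.31 to 0.41 for PAP1, 0.56 to 0.60 for UFP, 0.32 to 0.37 for ACT, 0.33 to 0.41 for AT1, 0.96 to 1.05 for BT and 0.36 to 0.41 for GAPDH. The cause of these moves was not tested beyond what each setting fixes. Depth is unknown, as no threshold cycles were used here.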
